A study of Arabidopsis thaliana with 8 samples.

Results

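The pericentromere of chromosome 3 of Arabidopsis thaliana was taken as the interval from 10300001 to 17300000 of the TAIR10 assembly, counted from 1, a stretch of 7 Mb. Its members were the positions of 6 deposited lists that lay in this interval and at which the reference has a cytosine on the listed strand. They numbered 8617 of the 71531 listed positions of the series, at 7471 distinct positions. A further 65 of the 8682 listed positions of the interval had no cytosine there and were left out. The interval is gene-poor, as the name implies, with 21.4% of its bases in protein-coding genes against 54.1% of the nuclear genome.

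Bisulfite sequencing, in which unmethylated cytosines are read as thymines, had been applied to 8 samples of the recombinant inbred lines CVL39 and CVL125, both bred from a cross between Ler and Cvi. Each line was sampled as 1 ancestral pool and as 3 selected pools, taken from the dynamic landscapes 1, 5 and 6, in which populations had gone through 5 generations of selection, followed by 2 generations without it. Each pool held DNA of the whole above-ground tissue of 4 plants aged 25 days. A list names the cytosines at which a selected pool differed from the ancestral pool of its own line, here called differentially methylated cytosines (DMCs). The pools are single samples of a population, and 1 ancestral pool stands behind all 3 lists of a line, so a difference between the lines cannot be told apart from a difference between their ancestral pools. The lists hold no methylation levels, no direction of change and no read depth. The study describes the sequencing as low in coverage, and which cytosines had enough reads to be tested is not known.

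Pericentromeres are the gene-poor, condensed flanks of the centromere, in which transposons and tandem satellite repeats are densely methylated in all sequence contexts. Methylation of CG sites is copied at replication by MET1, that of CHG sites (H being A, C or T) is maintained by CMT3, and that of CHH sites by CMT2 and, guided by small RNAs, by DRM2. In active genes, methylation of the body is largely confined to CG sites. In plants CMT2 is known to favour CAA and CTA among the CHH sites, and CMT3 acts less on CCG than on CAG and CTG.

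To show what the listed cytosines look like in sequence, the stretches of 200 bp that held the most distinct DMC positions of a line are given, from the reference assembly of RefSeq (TAIR10.1, with the nuclear sequence of TAIR10), plus strand, 5′ to 3′. Listed cytosines are in capitals. A capital C marks a listed cytosine of the plus strand and a capital G one of the minus strand. The first pair comes from CVL39 and from the 500 kb window that is resolved further on. The first of them lay at chr3:13803142-13803341 inside the pseudogene AT3G33069 and held 9 positions, of which 5 were CHG and 4 CHH. The second lay at chr3:13614573-13614772 in the pseudogene AT3G33081 and held 8.
CVL39 stretch in AT3G33069: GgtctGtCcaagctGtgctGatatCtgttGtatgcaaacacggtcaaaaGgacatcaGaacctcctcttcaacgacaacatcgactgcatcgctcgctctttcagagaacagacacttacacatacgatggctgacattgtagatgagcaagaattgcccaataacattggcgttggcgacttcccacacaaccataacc
CVL39 stretch in AT3G33081: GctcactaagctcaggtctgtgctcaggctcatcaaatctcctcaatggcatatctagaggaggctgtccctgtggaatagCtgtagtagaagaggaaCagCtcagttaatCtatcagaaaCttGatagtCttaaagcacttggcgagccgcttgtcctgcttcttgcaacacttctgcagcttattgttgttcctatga
In the first stretch the CVL39 lists held 2, 6 and 2 DMCs and the CVL125 lists 0, 1 and 0. In the second the CVL39 lists held 1, 0 and 7 DMCs and the CVL125 lists none, so most of its calls came from landscape 6.

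The next stretches are the densest of CVL125 in the same window. The first lay at chr3:13591692-13591891 outside any annotated gene, in a window of 10 kb that matched itself best at a shift of 178 bp, and its 9 positions were all CHH. The second lay at chr3:13576379-13576578 in the pseudogene AT3G33035, and its 5 positions came from landscape 1 alone.
CVL125 stretch outside genes: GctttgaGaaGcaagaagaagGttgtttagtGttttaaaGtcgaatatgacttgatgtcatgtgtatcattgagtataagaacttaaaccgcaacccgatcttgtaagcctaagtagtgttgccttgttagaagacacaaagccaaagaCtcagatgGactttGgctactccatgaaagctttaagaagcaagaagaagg
CVL125 stretch in AT3G33035: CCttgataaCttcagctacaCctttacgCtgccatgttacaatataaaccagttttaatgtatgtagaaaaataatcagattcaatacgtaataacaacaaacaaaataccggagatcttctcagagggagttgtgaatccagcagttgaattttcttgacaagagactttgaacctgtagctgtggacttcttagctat
The first of these held 4, 0 and 1 DMCs in the CVL39 lists and 8, 2 and 2 in the CVL125 lists. Only 21.8% of its 78 cytosines lay in unique sequence, which means here that every 50-mer over the cytosine occurred once in the bisulfite-converted reference genome.

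The last pair is the densest stretch of each line in the rest of the interval. That of CVL39, at chr3:14865689-14865888, was unique throughout, and held 15 distinct DMC positions that were spread over the stretch on both strands. That of CVL125, at chr3:12779333-12779532, held 29, of which 28 lay in a run of CT dinucleotides, and 2.15% of its cytosines were unique.
CVL39 stretch, rest of the interval: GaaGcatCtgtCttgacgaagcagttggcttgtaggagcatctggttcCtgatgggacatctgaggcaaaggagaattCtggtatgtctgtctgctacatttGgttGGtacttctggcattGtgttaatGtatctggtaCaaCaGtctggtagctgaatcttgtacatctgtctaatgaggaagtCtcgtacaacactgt
CVL125 stretch, rest of the interval: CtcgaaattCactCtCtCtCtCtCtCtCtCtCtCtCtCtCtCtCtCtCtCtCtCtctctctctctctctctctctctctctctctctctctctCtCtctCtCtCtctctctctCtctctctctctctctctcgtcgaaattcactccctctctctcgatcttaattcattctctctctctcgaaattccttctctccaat
The CVL39 stretch held 8, 5 and 8 DMCs in its own lists and 3, 3 and 2 in those of CVL125. The CVL125 stretch held 29, 23 and 12 DMCs in its own lists and 1 in each list of CVL39.

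The first comparison addressed how many DMCs the interval held in each line. In CVL39 the interval held 1565 DMCs in landscape 1, 1680 in landscape 5 and 1715 in landscape 6. Of all nuclear cytosines, 0.0263%, 0.0294% and 0.0297% were listed in these populations, and of the cytosines of the interval 0.0622%, 0.0668% and 0.0682%. In CVL125 it held 1329, 1399 and 929 DMCs in the same order. There the genome-wide share was 0.0293%, 0.0328% and 0.017%, against 0.0528%, 0.0556% and 0.0369% in the interval. In all 6 lists the interval was thus richer in DMCs than the genome as a whole.

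As a share of the nuclear DMCs of a list, the interval took 13.9%, 13.3% and 13.5% in CVL39 and 10.6%, 9.94% and 12.7% in CVL125. The exact Clopper-Pearson intervals at the 95% level ran from 12.7% to 14.5% over the CVL39 lists and from 9.45% to 13.5% over those of CVL125. Such intervals cover counting error only. The line means were 13.6% ± 0.30 (SD, n = 3) and 11.1% ± 1.46 (SD, n = 3), and the lists of the lines did not overlap. The difference of 2.47 percentage points gave p = 0.1 in a two-sided exact permutation test, the smallest p that 3 populations against 3 can give, and 0.267 after Benjamini-Hochberg adjustment over 8 comparisons between the lines. It fell to 0.725 points (exact p = 0.6) with a 10 times smaller p of the listed positions and to 0.896 (exact p = 0.4) in unique sequence. Without the 500 kb window that was picked for its difference, the shares were 11.4% ± 0.41 and 10.4% ± 1.38 (SD, n = 3 each), the lists overlapped, and the exact p was 0.4.

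DMCs of the interval were mostly outside the CG context. Over the 6 lists, 1964 were CG, 2677 CHG and 3976 CHH. Of the cytosines of the interval, 13.2% are CG, 13.4% CHG and 73.5% CHH. Per 10000 cytosines, the mean rates in CVL39 were 9.87 for CG, 16.6 for CHG and 4.15 for CHH. In CVL125 they were 9.89, 9.89 and 3.02, so a CHH cytosine was the least often listed. The CVL39 lists held 277, 347 and 357 CG-DMCs, 532, 555 and 592 CHG-DMCs, and 756, 778 and 766 CHH-DMCs. In CVL125 there were 371, 413 and 199 CG-DMCs, 344, 358 and 296 CHG-DMCs, and 614, 628 and 434 CHH-DMCs. Every CVL39 list therefore held more CHG- and CHH-DMCs than any CVL125 list, whereas the CG counts overlapped.

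**Figure D1:**
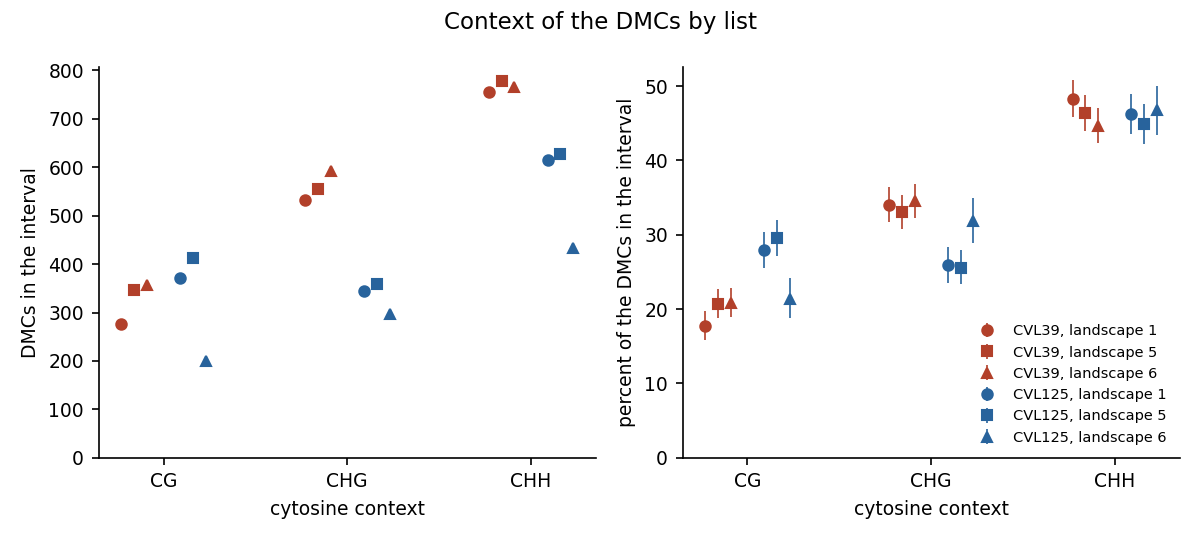
DMCs of the interval by context, as counts (left) and as percent of the DMCs of the interval in that list (right, with exact 95% intervals), 1 point per list. CHG shares of the CVL39 lists lie between 33.0% and 34.5%, above the 25.6% to 31.9% of the CVL125 lists, and the CG shares lie the other way round.

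Relative to all DMCs of the interval, the CG share was 17.7%, 20.7% and 20.8% in CVL39, against 27.9%, 29.5% and 21.4% in CVL125. The CHG share was 34.0%, 33.0% and 34.5% in CVL39, against 25.9%, 25.6% and 31.9% in CVL125. Neither share overlapped between the lines, and both comparisons gave an exact p = 0.1, the smallest possible, and an adjusted p of 0.267 over the 8 comparisons. Both include the 500 kb window that was picked for its difference, and neither was run without it. Outside the block described below, which holds that window, the CG shares overlapped, at 19.5% to 25.0% in CVL39 and 23.7% to 32.2% in CVL125. The CHG shares did not overlap there. CHH shares averaged 46.4% ± 1.82 and 45.9% ± 0.94 (SD, n = 3 each) and overlapped, with an exact p = 0.8. In CVL125 the landscape 6 population stood closest to CVL39 in the CG and CHG shares and also had the shortest list.

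Per reference cytosine, and in comparison with the rest of the nuclear genome, the CHG rate of the interval was 5.06 to 5.08 times as high in CVL39 and 3.36 to 3.67 times in CVL125. For CHH the ratios were 3.48 to 3.68 and 2.16 to 2.78. For CG the ratio was 0.94 to 1.01 in CVL39 and 1.04 to 1.25 in CVL125, so CG-DMCs were about as frequent here as elsewhere.

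Within CHH, the sites that CMT2 is known to favour had the highest rates in CVL39, and in CVL125 once runs of CT were set aside. Rates by site outside the interval are not given here. The order of these sites, and of the CHG sites below, can therefore not be called particular to it. In CVL39 the mean rate per 10000 cytosines of the interval was 7.93 ± 0.43 at CAA and 8.77 ± 0.48 at CTA (SD, n = 3 each). In CVL125 it was 5.35 ± 1.06 at CAA and 5.29 ± 0.45 at CTA. The other CHH sites had mean rates between 0.95 and 3.88 in CVL39 and, apart from CTC, between 0.80 and 2.02 in CVL125. At CTC the CVL125 rate was 5.30, level with that at CTA, and 2.41 once runs of at least 4 CT dinucleotides were left out. Such runs held 23, 19 and 8 of the DMCs of the interval in the CVL39 lists and 64, 81 and 29 in the CVL125 lists.

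Among CHG sites, CCG had the lowest rate in both lines. It was 12.2 ± 0.80 per 10000 in CVL39, against 17.6 ± 1.87 at CAG and 18.0 ± 0.35 at CTG (SD, n = 3 each). In CVL125 it was 8.28 ± 0.91, against 10.6 ± 1.22 at CAG (SD, n = 3 each), and the CTG rates ran from 8.85 to 11.1. The CVL39 lists all lay above the CVL125 lists at each of these CHG sites.

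DMCs were found on both strands, but the partner of a listed CG or CHG site on the opposite strand was seldom listed. Of the CG-DMCs of the interval, the other strand of the same site was also listed for 0%, 0.576% and 1.12% in CVL39 and 1.62%, 1.94% and 1.01% in CVL125. In the rest of the genome this share was 1.35% to 4.51%. For CHG sites of the interval it was 0% to 1.08%. Between 21.9% and 24.9% of neighbouring DMCs of a list were less than 100 bp apart, and the lines gave 22.9% ± 1.42 and 24.7% ± 0.22 (SD, n = 3 each, exact p = 0.2). Pairs of neighbouring CHH-DMCs within 50 bp lay on the same strand in 89.4% to 96.2% of cases. Similar values were found in the rest of the genome. There 17.7% to 26.9% of neighbours were less than 100 bp apart, and 91.3% to 97.65% of such CHH pairs lay on the same strand.

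The reference annotates 753 protein-coding genes and 871 pseudogenes in the interval. No transposons are annotated in it, and most pseudogene loci carry the product name uncharacterized protein. Pseudogenes, with or without transcripts, covered 32.9% of the cytosines of the interval and held 57.5%, 53.2% and 54.8% of its DMCs in CVL39 and 50.8%, 50.5% and 55.7% in CVL125. The line means of 55.1% ± 2.20 and 52.3% ± 2.88 (SD, n = 3 each) overlapped, with an exact p = 0.3. By context, pseudogenes held 59.1% to 66.2% of the CHG-DMCs of a list but 30.2% to 37.7% of the CG-DMCs.

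CG-DMCs were found more often in protein-coding genes. These genes hold 23.1% of the CG cytosines of the interval, and the share of CG-DMCs inside them was 28.2%, 30.3% and 37.2% in CVL39, against 44.7%, 51.3% and 35.2% in CVL125. The mean difference was 11.9 percentage points toward CVL125, the lists overlapped, and the exact p was 0.2. Only 5.59% to 7.85% of the CHG-DMCs and 3.98% to 7.01% of the CHH-DMCs of a list lay in protein-coding genes. At least 1 DMC of CVL39 was found in 199 protein-coding genes and at least 1 of CVL125 in 235, and at least 1 CG-DMC in 143 and 193. Of the pseudogenes, 481 held DMCs of CVL39, 374 held DMCs of CVL125 and 286 held DMCs of both. The share of all nuclear genes and pseudogenes that hold a DMC is not given here, nor were these counts adjusted for length. They are a description only.

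The locus with the most distinct positions in both lines was the pseudogene AT3G42100, on the minus strand at 14275159 to 14281278. It held 25, 18 and 20 DMCs in the CVL39 lists and 29, 36 and 28 in the CVL125 lists, so that by count all CVL125 lists lay above those of CVL39. Of its distinct positions 8 were listed in both lines. AT3G32240 and AT3G32230, pseudogenes close together on the plus strand between 13203901 and 13212216, followed. The former held 15, 17 and 26 DMCs in CVL39 and 16, 20 and 19 in CVL125, and the latter 15, 15 and 20 against 14, 20 and 24. At both loci the lines overlapped. At all 3 loci CHH was the most frequent context and CHG the next.

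The other leading loci held fewer distinct positions. AT3G31980, a pseudogene at 12972404 to 12976508, held 18, 19 and 12 DMCs in CVL39 and 5, 11 and 8 in CVL125. AT3G30170, at 11793902 to 11797216, held 12, 14 and 16 against 12, 12 and 6. AT3G42766, at 14861485 to 14865389, was among the leading loci of CVL125 with 13, 19 and 8 DMCs, against 5, 10 and 12 in CVL39. Of these loci, AT3G31980 had all CVL39 lists above all CVL125 lists, and the others did not separate the lines. Here and at AT3G42100 these are counts and not shares of the list. The share of all loci that separate the lines in this way is not given here, so no weight is put on either locus.

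**Figure D2:**
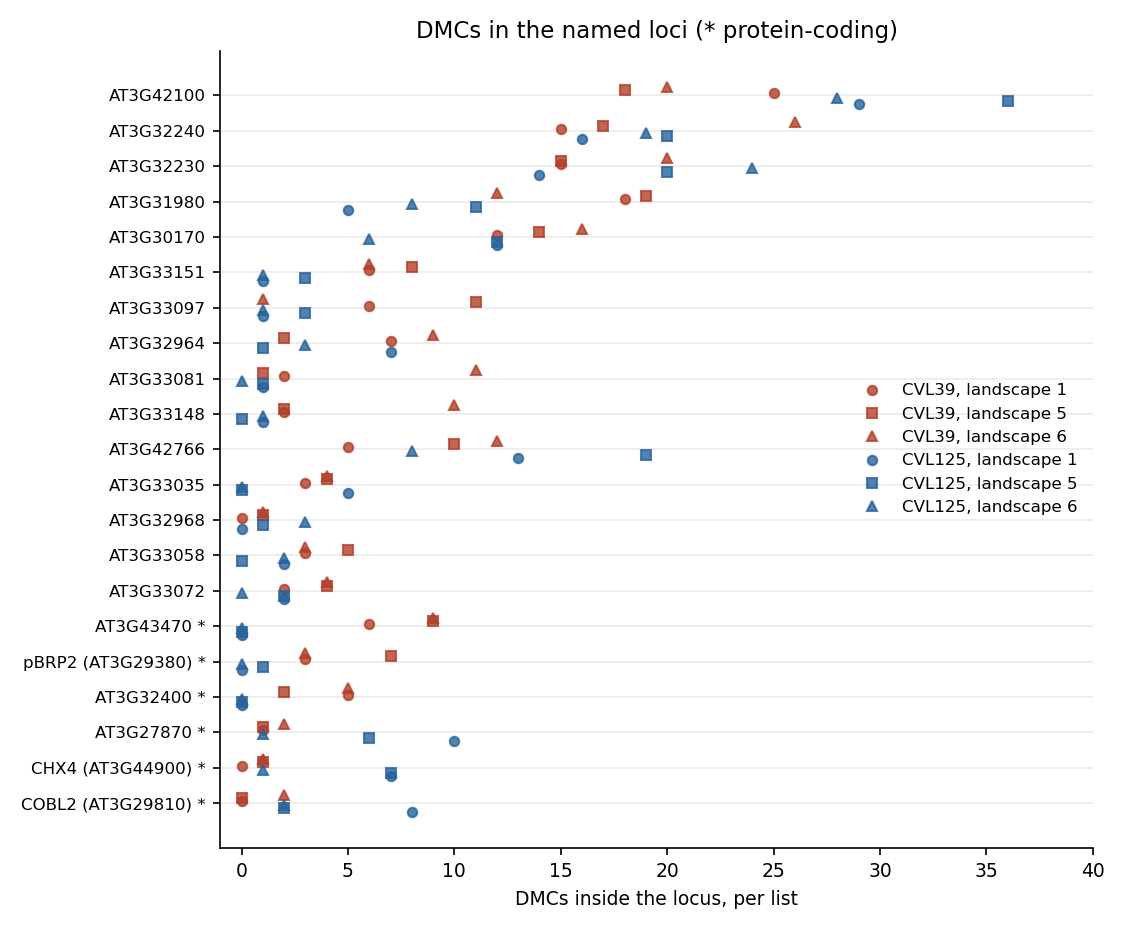
DMCs inside the named loci, 1 point per list (red CVL39, blue CVL125). The pseudogene AT3G42100 holds 18 to 36 DMCs in every list, and the protein-coding genes, marked with an asterisk, hold at most 10.

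The protein-coding genes that follow were chosen after their values were seen, as the 3 with the most distinct positions in each line. In CVL39 AT3G43470, a gene for a zinc ion and nucleic acid binding protein at 15391568 to 15393281, held 6, 9 and 9 DMCs and none in any CVL125 list. Of its 19 distinct positions 16 were exonic and 11 were CHH. pBRP2 (AT3G29380), which encodes a relative of the general transcription factor TFIIB, held 3, 7 and 3 DMCs against 0, 1 and 0. AT3G32400, a gene for an actin-binding formin homology protein at 13356995 to 13360630, held 5, 2 and 5 against none, and only 3 of its 12 positions were exonic.

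In CVL125 the leading genes carried CG-DMCs nearly throughout. AT3G27870, an E1-E2 type ATPase gene at 10330547 to 10335490, held 10, 6 and 1 DMCs in CVL125, against 1, 1 and 2 in CVL39. All 14 of its distinct positions were CG and exonic. CHX4 (AT3G44900), for a cation/H+ exchanger, held 7, 7 and 1 against 0, 1 and 1, and COBL2 (AT3G29810), for a COBRA-like protein, 8, 2 and 2 against 0, 0 and 2. In AT3G27870 and CHX4 the landscape 6 population of CVL125 had no more calls than CVL39 had at its highest.

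The interval was then divided into 70 windows of 100 kb. In 16 windows (22.9%) every CVL39 list exceeded every CVL125 list as a share of the list, against 12.9% of all 1193 windows of the nuclear genome. The reverse held in 10 windows (14.3%), against 11.2%. These counts include the 5 windows of the 500 kb stretch that was picked for its excess of CVL39. Among the other 65 windows, 11 (16.9%) had every CVL39 list higher and 10 (15.4%) every CVL125 list. The share for CVL39 was closer to the background, and that for CVL125 was not. By number of DMCs in place of the share of the list, the percentages were 27.1 and 4.29, against 13.1 and 3.69 over the genome. In the pericentromeres of the other 4 chromosomes, intervals of the same length with the fewest protein-coding bases, the shares were 4.29% to 11.4% and 7.14% to 15.7%.

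**Figure D3:**
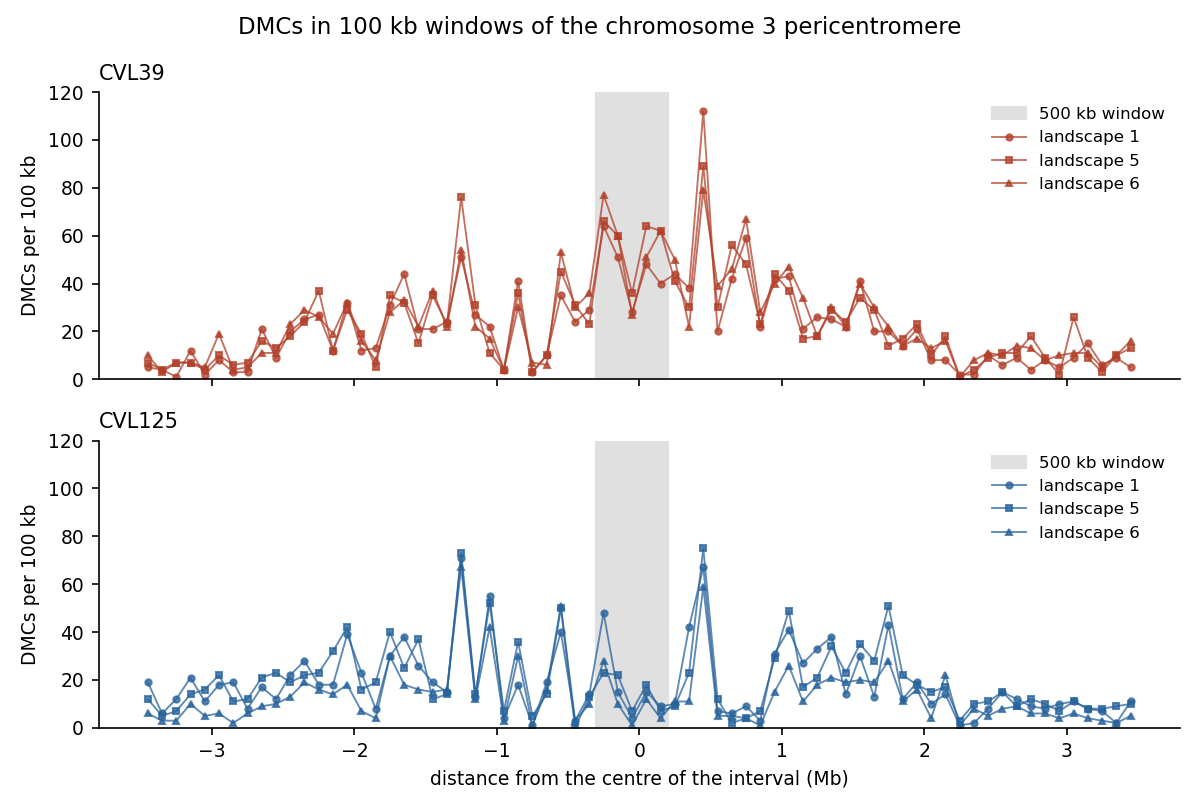
DMCs per window of 100 kb along the interval, as distance from its centre, for the 3 lists of CVL39 (top) and of CVL125 (bottom), with the 500 kb window shaded. The CVL39 lists stay at 27 or more through the shaded window, where the CVL125 lists range from 1 to 48, and the CVL39 lists peak to its right, at 79 to 112.

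The window with the most DMCs was 14200001 to 14300000, which holds AT3G42100. It held 112, 89 and 79 DMCs in CVL39 and 67, 75 and 59 in CVL125. Next came 12500001 to 12600000 with 51, 76 and 54 against 71, 73 and 67, and 13500001 to 13600000 with 64, 66 and 77 against 48, 23 and 28. The first and second of these did not separate the lines as shares of the list.

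The windows with the largest excess of CVL39 lay close together. From 14500001 to 14600000 there were 59, 48 and 67 DMCs in CVL39 and 9, 4 and 4 in CVL125, a ratio of the means of 10.2. From 13900001 to 14000000 there were 40, 62 and 62 against 9, 7 and 4, and from 14400001 to 14500000 there were 42, 56 and 46 against 6, 2 and 5. All contexts were involved. In the last of these windows the 3 CVL39 lists together held 27 CG-, 49 CHG- and 68 CHH-DMCs, and those of CVL125 held 1, 4 and 8.

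The largest differences toward CVL125 were smaller than those toward CVL39. From 12700001 to 12800000 there were 22, 11 and 17 DMCs in CVL39 and 55, 52 and 42 in CVL125. This window holds the CT run shown above, and 116 of its CVL125 calls were CHH. From 15500001 to 15600000 there were 20, 14 and 22 against 43, 51 and 28. The third window by excess of CVL125 counts was 12500001 to 12600000, in which CG-DMCs differed most, with 26 calls over the CVL39 lists and 62 over those of CVL125, although the total counts of the lists overlapped.

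Of the 16 windows with every CVL39 list higher, 13 formed a pair of runs. The first ran over 8 windows from 13300001 to 14100000, with 328 to 393 DMCs per CVL39 list and 79 to 118 per CVL125 list. The second ran over 5 windows from 14300001 to 14800000, with 185 to 220 against 30 to 56. The windows between them, which include the one of AT3G42100, held many DMCs of both lines. The stretch from 13300001 to 14800000, which is called the block here, was noticed after the values were seen, and what follows on it is a description without a test.

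The block spans 1.5 Mb of the 7 Mb. It held 663, 703 and 714 DMCs in CVL39 and 283, 251 and 179 in CVL125. The left limit was abrupt at this resolution: the window before it, from 13200001 to 13300000, held 35, 45 and 53 DMCs against 40, 50 and 51, and the first window inside held 24, 31 and 30 against 3, 0 and 3. The right limit was gradual, with 42, 44 and 40 against 31, 29 and 15 in the last window of the block and 43, 37 and 47 against 41, 49 and 26 in the next.

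Outside the block the order of the lines turned. The remaining 5.5 Mb held 902, 977 and 1001 DMCs in CVL39 and 1046, 1148 and 750 in CVL125. As a share of the list this was 8.01%, 7.75% and 7.85% in CVL39, against 8.33%, 8.16% and 10.3% in CVL125. Since the block was drawn around windows with an excess of CVL39, a shift in this direction follows from the choice. CG shares of the DMCs outside the block ran from 19.5% to 25.0% in CVL39 and from 23.7% to 32.2% in CVL125, and overlapped. CHG shares there ran from 30.8% to 32.8% in CVL39 and from 24.8% to 29.9% in CVL125, and did not overlap.

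To compare the interval with the other pericentromeres, DMCs per reference cytosine were set against those of the other 4 intervals pooled, so that the length of a list cancels. For CHG the ratio was 1.57, 1.57 and 1.59 in CVL39, against 1.06, 1.07 and 1.08 in CVL125. All 6 lists lay above 1, with a geometric mean of 1.30, and a two-sided exact sign permutation test gave p = 0.03125, the smallest possible, and an adjusted p of 0.09375 over the 3 contexts. In unique sequence, without CT runs or with 500 kb trimmed from both ends, both CHG and CHH reached an adjusted exact p of 0.0469. These settings keep the 500 kb window that was picked for its difference. The ends were trimmed from the chromosome 3 interval only, so its core was set against the full length of the other 4. Without the 500 kb window the adjusted exact p was 0.0938 for CHG and 0.281 for CHH, and with a 10 times smaller p of the listed positions it was 0.562 and 0.812. For CHH the ratio was 1.37, 1.34 and 1.36 in CVL39, against 0.94, 0.95 and 1.04 in CVL125, with an adjusted exact p of 0.219. For CG it was 0.94, 1.03 and 0.99 in CVL39, against 1.24, 1.23 and 1.09 in CVL125, also with an adjusted exact p of 0.219. Since 1 ancestral pool underlies the 3 lists of each line, the 6 lists are not independent in these tests. The intervals also differ in composition. Protein-coding genes cover 21.4% of the bases of this interval and 26.5% of those of the other 4. Pseudogenes hold 38.2% of its CHG cytosines and 33.0% of theirs. The ratios were not adjusted for this.

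**Figure D4:**
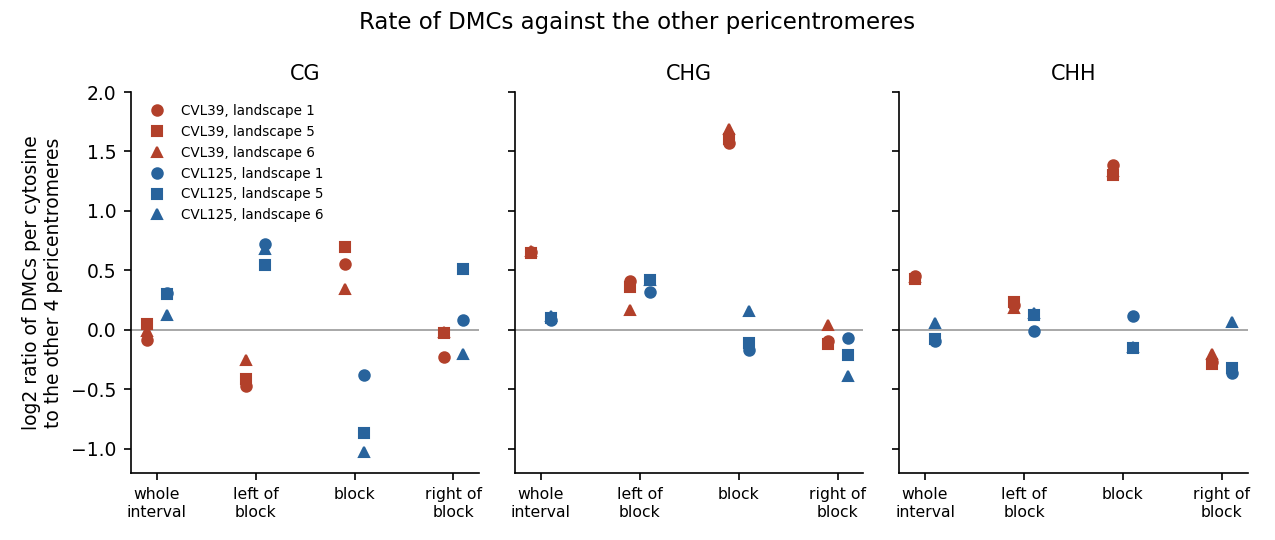
Log2 ratio of DMCs per reference cytosine to the rate in the whole of the other 4 pericentromeres, by context, with 1 point per list. Ratios are drawn for the whole interval and for its parts left of, in and right of the block. In the block the CVL39 lists lie at CHG ratios of 2.97 to 3.23, and outside it the CHG ratios of both lines lie between 0.76 and 1.34.

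Within the block the CHG ratio to the other pericentromeres was 2.97, 3.04 and 3.23 in CVL39, against 0.89, 0.93 and 1.12 in CVL125. The CHH ratio was 2.61, 2.46 and 2.53 against 1.08, 0.90 and 0.91. Even CG-DMCs followed, with ratios of 1.47, 1.62 and 1.27 against 0.77, 0.55 and 0.49. In the interval outside the block the CHG ratio was 1.15, 1.11 and 1.08 in CVL39, against 1.11, 1.12 and 1.07 in CVL125, and the lines overlapped.

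A different pattern was seen to the left of the block, from 10300001 to 13300000, in the CG context. There the CVL39 lists held 89, 106 and 127 CG-DMCs and the CVL125 lists 207, 205 and 123. The CG ratio to the other pericentromeres was 0.72, 0.75 and 0.84 in CVL39, against 1.65, 1.46 and 1.60 in CVL125, with no overlap. The CHG ratios of this part overlapped, at 1.12 to 1.33 in CVL39 and 1.25 to 1.34 in CVL125. AT3G27870 and COBL2, at which 12 of 12 and 9 of 10 distinct CVL125 positions were CG, lie in it. To the right of the block, from 14800001 to 17300000, these ratios overlapped between the lines in all 3 contexts. The CHG counts there did not, with 112, 116 and 136 in CVL39 against 110, 102 and 74 in CVL125.

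The window from 13500001 to 14000000 lies within the block and was picked for its difference between the lines, so it was not tested. It held 231, 288 and 277 DMCs in CVL39 and 91, 77 and 55 in CVL125. The means of 265 ± 30.2 and 74.3 ± 18.2 (SD, n = 3 each) had a ratio of 3.57, and the ratios within a landscape ran from 2.54 to 5.04. As a share of the list these were 2.05%, 2.28% and 2.17% in CVL39 and 0.724%, 0.547% and 0.754% in CVL125.

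All contexts and both strands took part. CG-DMCs numbered 37, 57 and 34 against 11, 17 and 9, CHG-DMCs 73, 87 and 106 against 25, 18 and 18, and CHH-DMCs 121, 144 and 137 against 55, 42 and 28. The ratio of the means was 3.46 for CG, 4.36 for CHG and 3.22 for CHH. On the plus strand there were 114, 136 and 139 DMCs against 38, 30 and 17, and on the minus strand 117, 152 and 138 against 53, 47 and 38. No DMC of the window lay in a CT run.

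The window is poor in genes and in unique sequence. The annotation holds 65 pseudogenes, 6 transcribed pseudogenes, 2 protein-coding genes and 1 lncRNA in it. Cytosines in unique sequence made up 30.2%, against 66.3% in the whole interval and 86.6% in the nuclear genome. Of the DMCs of the window, 41.6%, 41.3% and 50.9% lay in unique sequence in CVL39 and 28.6%, 35.1% and 32.7% in CVL125. In unique sequence alone there were 96, 119 and 141 DMCs in CVL39 and 26, 27 and 18 in CVL125, a ratio of 5.01. This ratio was above the 3.57 of the window as a whole, at smaller counts in both lines, and the cause was not tested.

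In steps of 10 kb, 46 of 50 windows held more calls in CVL39, 2 held equal numbers and 2 held more in CVL125. In 29 every CVL39 list held more DMCs than every CVL125 list, and in none was the reverse seen. These are counts and not shares of the list, in a window picked for this excess. The same count over the 10 kb windows of the genome is not given here. CVL125 had no call in 11 of the 50 and CVL39 in 2. The excess was thus spread over the window and did not come from a single locus.

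**Figure D5:**
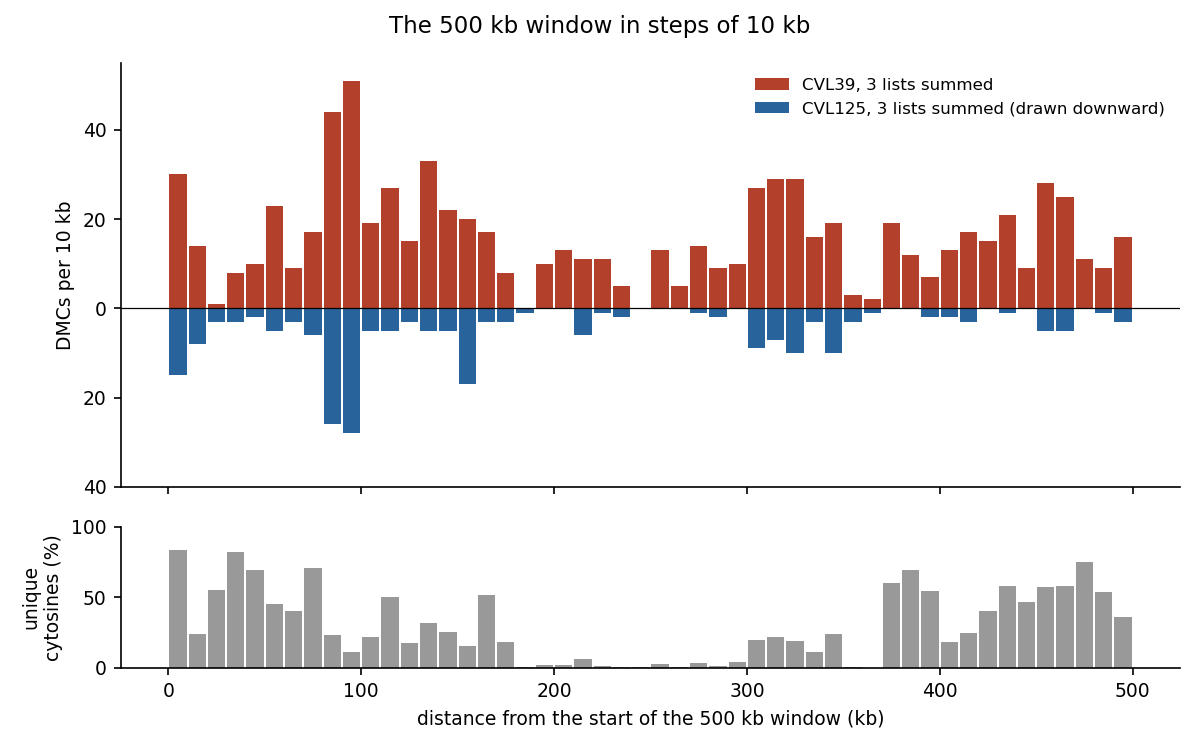
The 500 kb window in 50 steps of 10 kb. Top, DMCs summed over the 3 lists of CVL39 (upward) and of CVL125 (downward). Bottom, percent of cytosines in unique sequence. CVL39 exceeds CVL125 in 46 steps, and both lines are highest in the step with 51 CVL39 calls and 28 CVL125 calls.

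Both lines were highest in the same pair of steps. From 13590001 to 13600000 there were 18, 18 and 15 DMCs in CVL39 and 11, 6 and 11 in CVL125. From 13580001 to 13590000 there were 16, 14 and 14 against 13, 6 and 7. In these steps the sequence matched itself best at a shift of 178 bp, the length of the repeat unit of the centromeric satellite of this species, at 44% and 36.2% of the bases. Cytosines in unique sequence made up 11.5% and 22.9%. The summed calls were 51 against 28 and 44 against 26, a smaller ratio of CVL39 to CVL125 than over the window as a whole.

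In the other steps named by the number of CVL39 calls, no such repeat was seen, with a best match of 27.8% to 28.7% of the bases at any shift tested. From 13630001 to 13640000 there were 10, 13 and 10 DMCs against 2, 2 and 1. From 13500001 to 13510000 there were 11, 5 and 14 against 9, 3 and 3, and from 13810001 to 13820000 there were 6, 11 and 12 against 2, 4 and 1. In the first of these the summed calls were 33 against 5, and every CVL39 list lay above every CVL125 list.

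Pseudogenes led the loci of the window. AT3G33151, at 13960517 to 13963601, held 6, 8 and 6 DMCs in CVL39 and 1, 3 and 1 in CVL125. AT3G33097, at 13826473 to 13828506, held 6, 11 and 1 against 1, 3 and 1, and AT3G32964, at 13503321 to 13506924, held 7, 2 and 9 against 7, 1 and 3. AT3G33081 held 2, 1 and 11 against 1, 1 and 0, and AT3G33148, at 13956614 to 13959337, held 2, 2 and 10 against 1, 0 and 1. In the last pair landscape 6 alone gave most of the CVL39 calls. In CVL125 the loci with the most distinct positions were AT3G32964 with 11 and AT3G33035 with 5. AT3G32968, AT3G33058 and AT3G33072 followed with 4 each, as many as AT3G33151 and AT3G33097 held in that line.

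Because the lines have separate ancestral pools, positions listed in both can be compared. Of the 4432 distinct positions of CVL39 and the 3145 of CVL125, 106 were the same, which is 2.39% and 3.37%. In the rest of the nuclear genome 1271 positions were shared, or 4.73% and 5.07%. Of the 106, 29 were CG, 28 CHG and 49 CHH, and 6 lay in CT runs. The window from 14200001 to 14300000 held 17 of them, more than any other, followed by 8 from 13200001 to 13300000, where AT3G32230 and AT3G32240 lie. The 500 kb window held 12 shared positions, 1.70% of its 706 positions of CVL39 and 6.19% of its 194 of CVL125. Within 50 bp of a position of the other line lay 20.8% of the CVL39 positions and 28.7% of the CVL125 positions of the interval.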

How the data were processed

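The 6 lists give, for each selected pool, the chromosome, strand, position and p-value of the cytosines that differed from that line's ancestral pool. The deposited p-values come from the authors' own comparison. They served here only for a stricter setting and are not printed. The authors' methods describe an alignment of these low-coverage SOLiD reads with SOCS to Ler and Cvi sequences derived from TAIR10. Whether the lists come from that alignment, the test behind the p-values and the minimum coverage are not given in the sources used here, and the depth is unknown.

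Positions were read as counted from 0, since 8617 of 8682 then had a cytosine on the listed strand, and are printed counted from 1. Contexts came from the RefSeq assembly TAIR10.1, and base differences of Ler and Cvi were not used. Genes came from its annotation, which holds no transposons, so the comparison planned for transposable elements used pseudogenes, transcribed ones included. A cytosine was called unique where every 50-mer over it, after conversion of C to T, occurred once in the converted genome.

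The unit of replication was the selected population (3 per line). Lines were compared by two-sided exact permutation tests and chromosomes by exact sign permutation over the 6 lists, with Benjamini-Hochberg adjustment over 8 and 3 comparisons and a threshold of 0.05. Functions were tested on simulated lists. Named loci were, per line, the 5 with the most distinct positions in the interval and in the 500 kb window. Named windows were the 3 of 100 kb with the highest mean count and the 3 with the largest difference each way, and the 5 of 10 kb with the most CVL39 calls. Members and lists were chosen with earlier results of these data known. Alternatives were a 10 times smaller p, no CT runs, other limits, windows and distances, both strands counted once, every listed position, a replicate block and each population left out. The settings of unique sequence and of the interval without the block were chosen after seeing the data. Python 3.11.15, numpy 2.4.6, pandas 2.3.3, SciPy 1.17.1 and matplotlib 3.10.9 were used.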

Additional observations from a re-analysis of the deposited data

How the results depend on the processing

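No comparison between the lines could pass the threshold, since the smallest p is 0.1, so the settings bear on direction only. The higher CVL39 share of a list, 2.47 percentage points, was 0.725 with a 10 times smaller p and 0.896 in unique sequence (exact p = 0.6 and 0.4). It turned to -1.05 outside the block, which was drawn around windows with more CVL39 calls, and outside the 500 kb window it turned to -0.0558 in unique sequence. The difference in CHH share turned to -8.83 with a 10 times smaller p and to -0.666 with 500 kb trimmed from both ends, and ran from -0.45 to 1.37 over the populations left out, negative without CVL39 landscape 1 or CVL125 landscape 5. The difference in close neighbours turned to 0.784 without CT runs. The differences in CG share, CHG share, CG-DMCs in protein-coding genes and pseudogenes kept their direction in all settings run. None of those settings left out the 500 kb window.

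On the log2 scale, the CHG and CHH rates against the other pericentromeres were 0.38 and 0.20 as reported. They were 0.38 and 0.26 without CT runs and 0.48 and 0.47 in unique sequence. With the ends trimmed from the chromosome 3 interval only, and not from the other 4, they were 0.55 and 0.38. Each of these alternative settings gave an adjusted exact p of 0.0469. Without the 500 kb window the rates were 0.33 and 0.12 (adjusted exact p 0.0938 and 0.281), and with a 10 times smaller p 0.39 and 0.05 (0.562 and 0.812). Without the block they were 0.15 and -0.00847, with no test. The percent of 100 kb windows with every CVL125 list higher, 14.3, was 4.29 by number of DMCs and 8.57 with a 10 times smaller p (genome 3.69 and 5.37), and 17.1 to 22.9 over the populations left out, highest without CVL125 landscape 1 (genome 14.4). The ratio in the 500 kb window, 3.57, was 5.01 in unique sequence and 3.16 to 4.02 over the populations left out. Of the positions of CVL39, 923 lay within 50 bp of one of CVL125, against 106 at the same position. The latter fell to 65 to 88 over the populations left out (65 without CVL125 landscape 5), and to 0 among 520 positions of CVL39 and 412 of CVL125 with a 10 times smaller p.

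With the lines paired by landscape (replicate block), the share of a list kept its difference of 2.47 percentage points with an exact p of 0.25, the smallest possible. Deviations of same-numbered populations from their line means over 1193 windows correlated at -0.08, 0.13 and -0.06, and only landscape 5 correlated best with its own number, so the landscape number did not pair the samples in the data. No comparison between the lines could pass the threshold with or without this pairing. The cause of these shifts was not tested. The unknown depth, 3 populations per line and 1 ancestral pool per line limit all values.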
